A study of Mus musculus with 6 samples.

Results

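Chromosomes 11 and 17 of the mouse were described from a map of contacts between 1 Mb bins, set beside the other 17 autosomes. Every bin of the position key on these chromosomes was taken, 122 on chromosome 11 and 96 on chromosome 17, which makes 218 of the 2666 bins of the map. A value was listed for 212 of them. After a filter on coverage 195 remained, 115 on chromosome 11 and 80 on chromosome 17, of 2341 kept bins in all. The first 3 bins of each chromosome, beside the centromere, held no value, and coverage removed 4 further bins of chromosome 11 and 13 of chromosome 17. Of these 13, 7 lie side by side from 35000001 to 42000000 (mm9).

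The cells were embryonic fibroblasts, connective tissue cells grown from mouse embryos, of a hybrid background between strains 129 and Cast. They form 1 group without treatment. The labels list 6 Hi-C libraries, 3 technical replicates from each of 2 embryos, and give neither the direction of the cross nor the sex. Chromatin was fixed with formaldehyde, cut with HindIII and ligated in dilution. The authors pooled libraries into 1 balanced map, so there was no replicate to compare, and the intervals given here cover counting error only. PCR copies of a contact are not independent molecules. The name of the deposited map was read as contacts with 1 end on a Cast and the other on a 129 chromosome, which the labels do not state. Under that reading a same-chromosome contact joins homologs. Contacts within 1 homolog that carry a wrongly assigned end cannot be told apart from these in the pooled map.

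In an interphase nucleus each chromosome fills a territory of its own, and chromosomes touch where territories meet. Hi-C turns such nearness into joined fragments. Stretches of a chromosome tend to meet stretches of the same kind, which gives a compartment pattern: gene-rich open chromatin on one side, gene-poor chromatin, often near the nuclear lamina, on the other. In many cell types gene-dense chromosomes lie toward the nuclear interior. Chromosome 11 carries, among others, the Hoxb cluster of body-axis regulators, Col1a1 for the main collagen of fibroblasts, the tumour suppressors Trp53 and Brca1 and type I keratins. Chromosome 17 carries the H2 major histocompatibility genes, Vegfa, a growth factor for blood vessels, and Runx2, a regulator of bone formation. No gene annotation of mm9 was used, so no gene is placed in a bin and no bin is called active.

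Both chromosomes were gene-dense by the RefSeq annotation (GRCm38.p6), counted per chromosome over the length in the position key. Chromosome 11 held 1609 protein-coding genes, 13.2 per Mb, at rank 2 of 19 autosomes. Chromosome 17 held 1059, 11.1 per Mb, at rank 4. The 17 other autosomes had 7.99 ± 2.09 per Mb (SD over chromosomes), with the highest density on chromosome 7, at 13.3.

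The whole map held 1877655 contacts between kept bins, of which 1776055 joined different chromosomes, a mean of 0.684 per pair of such bins. A kept bin of chromosome 11 had a mean of 1683 contacts and a kept bin of chromosome 17 a mean of 1539, against 1626 ± 69.5 (SD) on the 17 other autosomes. At this depth single pairs of bins are read with wide intervals, and most statements below are on sums over many pairs.

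Trans profiles, the contacts of a bin with all other chromosomes, were reduced to a first eigenvector whose sign divides bins into 2 classes. Class 1 is the class with the slightly higher mean balanced trans value (0.593 against 0.589), which only names it. It took 58 of 115 bins of chromosome 11, or 50.4%, and 34 of 80 bins of chromosome 17, or 42.5%. Among 19 autosomes chromosome 11 came after chromosome 19 (51.9%), and chromosome 17 was at rank 10. The 17 other autosomes had 42.7% ± 3.84 (SD), so chromosome 17 sat at their mean. With bins below 80% of the median coverage left out the shares were 42.7% on chromosome 11 and 45.2% on chromosome 17, at ranks 8 and 5, against 42.5% ± 5.95 (SD) on the others. Chromosome 7, the densest in genes, had the smallest share, at 35.2%.

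Across 19 autosomes, gene density and class 1 share correlated weakly, at Pearson's r = 0.255 and Spearman's rho = 0.266. Without chromosomes 7 and 11, the farthest from the median density, r was 0.512, and without chromosomes 11 and 17 it was 0.0622. The chromosomes are points of 1 map and share their contacts, so these values describe the map and carry no test.

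**Figure D1:**
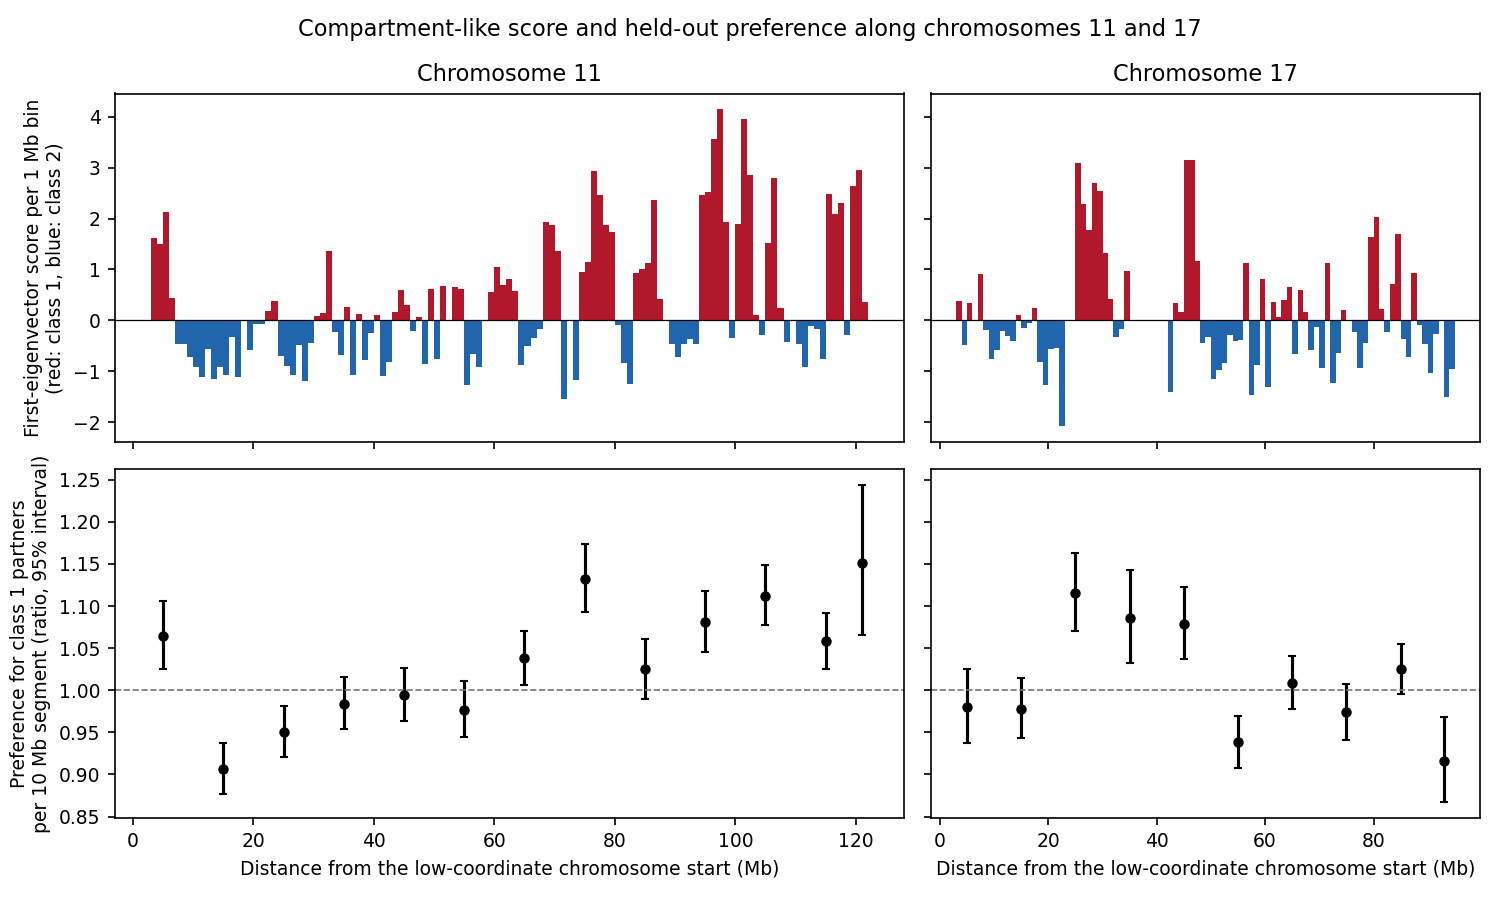
Upper panels give the first-eigenvector score of each kept 1 Mb bin (no unit) along chromosomes 11 and 17, with class 1 bins red and class 2 bins blue. Lower panels give, per 10 Mb segment with at least 2 kept bins, the ratio of contacts over expected with class 1 to that with class 2 bins of other autosomes, with 95% intervals (counting error). Chromosome 11 starts at 1.065, is lowest from 10 to 20 Mb (0.907) and lies above 1 in value from 60 Mb on. Chromosome 17 is highest between 20 and 50 Mb.

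On chromosome 11 the classes were unevenly placed. The longest run was of class 2, 11 bins from 7000001 to 18000000. The next longest was also of class 2 and lay in the distal part, 7 bins from 108000001 to 115000000. Further class 2 runs covered 24000001 to 30000000 and 89000001 to 94000000. Class 1 runs were longest from 74000001 to 80000000 (6 bins), with 5 bins each from 59000001, from 83000001 and from 94000001. The run of 4 bins at the start of the kept sequence, from 3000001 to 7000000, was also class 1. In all there were 19 runs of class 1 and 20 of class 2.

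On chromosome 17 the longest class 1 run covered 7 kept bins from 25000001 to 32000000. A class 1 run of 5 bins followed from 43000001 to 48000000, on the far side of the stretch that coverage had removed. The longest class 2 run came directly after it, 8 bins from 48000001 to 56000000. Class 2 also covered 8000001 to 14000000 and 18000001 to 23000000. Beyond 56000000 runs were short, and over the chromosome the median run was 1 bin in class 1 and 2 bins in class 2.

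Scores of bins 1 Mb apart correlated at 0.572 on chromosome 11 (110 pairs) and at 0.509 on chromosome 17 (74 pairs), against 0.495 ± 0.0677 (SD) on the others. Neighbouring bins share the chromosome and its coverage, and these are descriptions. Score also moved with coverage on chromosome 11. Its class 1 bins had a mean of 1565 contacts and its class 2 bins 1803, a correlation of score with contacts of -0.424 over 115 bins. On chromosome 17 the means were 1522 and 1552, with a correlation of -0.0733 over 80 bins. The part of coverage in the classes was not tested.

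Because the eigenvector uses the contacts of the bins it scores, a held-out measure was made. The classes of partner bins came from an eigenvector computed without the chromosome in question. The preference of a bin, segment or chromosome is its contacts over expected with class 1 bins of other autosomes, divided by the same with class 2 bins, so that 1 means no preference. The sign of the held-out classes and of the scores agreed in 90.4% of chromosome 11 bins and in 91.2% of chromosome 17 bins.

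Over its whole length, chromosome 11 had the highest preference of the 19 autosomes, 1.025 (95% interval 1.015 to 1.035, on 77758 contacts with class 1 and 98290 with class 2 partners). This is 1.026 times the value of the 17 other autosomes (1.016 to 1.035), which pooled to 0.999 and ran from 0.978 on chromosome 7 to 1.013 on chromosome 9. Chromosome 17 had 1.006 (0.994 to 1.018), at rank 7, and did not differ from the others beyond counting error, at 1.007 times their value (0.995 to 1.019). Chromosome 11 over chromosome 17 was 1.019 (1.004 to 1.034). With its own ends of 10 Mb left out and all partner bins kept, chromosome 11 had 1.014 (1.004 to 1.025), and the 18 bins of its ends alone had 1.083 (1.058 to 1.109). With the 10 Mb at each end of every chromosome removed, which also changes the partners and the eigenvector, the value of chromosome 11 was 1.008 (0.997 to 1.019), an interval that reaches 1, and chromosome 9 came first at 1.020. In this setting chromosome 17 had 1.011, at rank 2, and chromosome 11 was at rank 3. The order of chromosomes 11 and 17 thus depended on the ends. Chromosome 17 without its own ends had 1.017 (1.004 to 1.031), and the 15 bins of its ends alone had 0.962 (0.937 to 0.987). With bins below 80% of the median left out chromosome 11 had 1.019, still the highest, and chromosome 17 had 0.997, at rank 13.

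**Figure D2:**
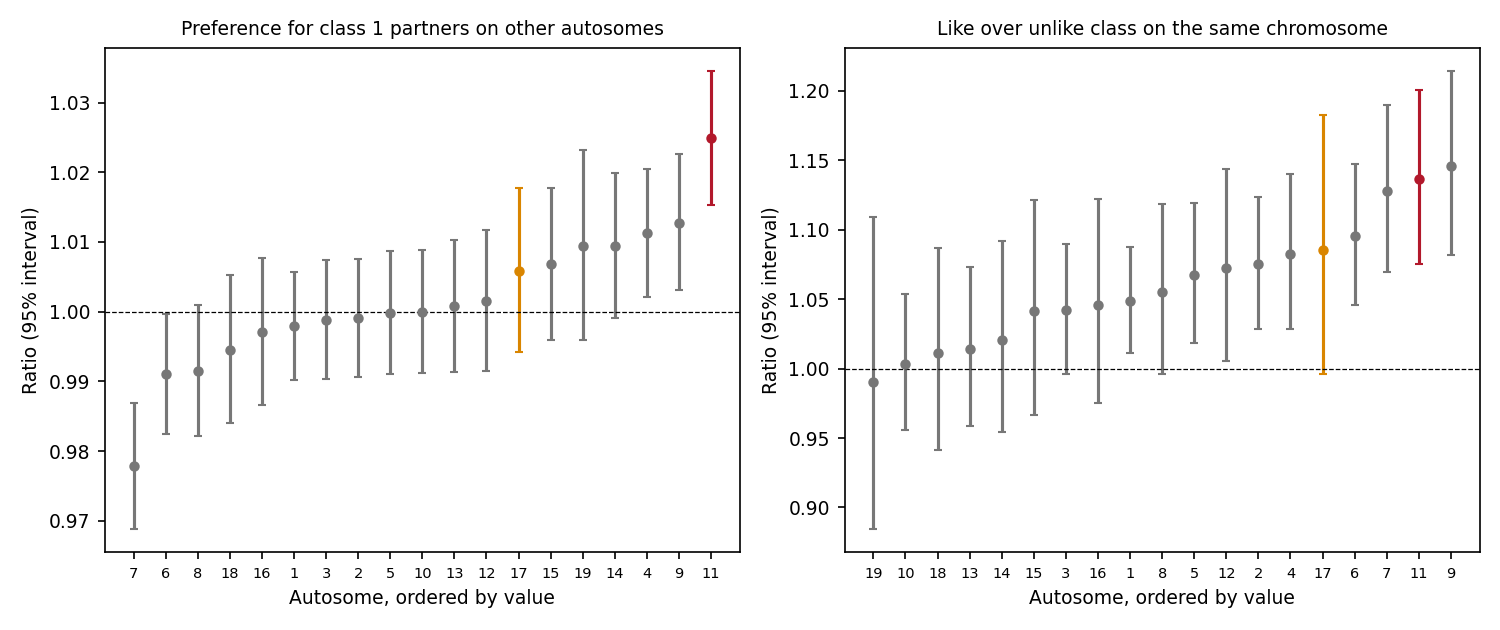
Left, preference of each autosome for class 1 over class 2 bins of other autosomes. Right, contacts over expected of like-class bins divided by that of unlike-class bins on the same chromosome. Points are ratios with 95% intervals (counting error), ordered by value, with chromosome 11 in red, chromosome 17 in orange and the other 17 in grey. Chromosome 11 is highest at left (1.025) and second from the top at right (1.136), and the interval of chromosome 17 includes 1 in both.

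On chromosome 11 the segments that preferred class 2 were proximal, from 10 to 30 Mb, and all but the first of those that preferred class 1 were distal. After its first 10 Mb (1.065, 1.025 to 1.106), the segment from 10 to 20 Mb had a preference of 0.907 (0.877 to 0.938), rank 242 of 247 autosomal segments, and none of its 9 kept bins was class 1. From 20 to 30 Mb it was 0.950 (0.920 to 0.981). The segments from 30 to 60 Mb were near 1, at 0.984, 0.995 and 0.977, all with intervals that include 1.

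From 60 Mb on all segments of chromosome 11 lay above 1 in value. The segment from 60 to 70 Mb had 1.038 (1.007 to 1.070). The highest was 70 to 80 Mb, at 1.133 (1.093 to 1.174), rank 6 of 247. It was followed by 1.025 (0.990 to 1.061) from 80 to 90 Mb, the only distal segment whose interval includes 1. The segment from 90 to 100 Mb had 1.081 (1.046 to 1.118), 100 to 110 Mb had 1.112 (1.077 to 1.148, rank 12), and 110 to 120 Mb had 1.058 (1.025 to 1.092). Within this distal part, the class 2 run of 7 bins from 108000001 to 115000000 had 0.972 (0.939 to 1.007). The last 2 bins, too few to be ranked, had 1.151 (1.066 to 1.243).

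Chromosome 17 had a different layout, with its class 1 preference in the middle. Its first 20 Mb were slightly below 1, at 0.980 (0.938 to 1.025) and 0.978 (0.944 to 1.014). Preference rose to 1.116 (1.070 to 1.163, rank 9) from 20 to 30 Mb, 1.086 (1.033 to 1.143) from 30 to 40 Mb on 5 kept bins, and 1.079 (1.037 to 1.122) from 40 to 50 Mb. It dropped to 0.938 (0.908 to 0.970) from 50 to 60 Mb.

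The distal part of chromosome 17 stayed near 1, at 1.009, 0.974 and 1.025 for the segments from 60 to 90 Mb, whose intervals all include 1. The last segment, with 4 kept bins, had 0.916 (0.867 to 0.968), rank 237. The last segments of the chromosomes thus lay on opposite sides of 1. The 3 high segments of chromosome 17 also had low coverage, with 1207, 1323 and 1358 contacts per kept bin against 1539 over the chromosome. Low coverage was not limited to them. Of the segments below 1 in value, 0 to 10 Mb had 1449, 10 to 20 Mb had 1321 and the last had 1438.5. The segments from 50 to 60 and 70 to 80 Mb, also below 1 in value, had 1579.5 and 1654. The part of coverage in the preference was not tested.

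An interval above 1 was found in 6 of 12 ranked segments of chromosome 11 (50%), in 3 of 10 of chromosome 17 (30%) and in 61 of 247 over all autosomes, a background of 24.7%. An interval below 1 was found in 2 of 12 (16.7%) and 2 of 10 (20%), against 73 of 247 (29.6%). Among single bins, 33 of 115 of chromosome 11 (28.7%) and 15 of 80 of chromosome 17 (18.8%) lay above 1, against 394 of 2231 (17.7%). Bins below 1 were 21 of 115 (18.3%) and 12 of 80 (15%), against 343 of 2231 (15.4%). Chromosome 17 was thus close to the background in single bins. On chromosome 11 both shares were above those of all autosomes, more so on the side of class 1.

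The bin with the strongest preference on chromosome 11 was 97000001 to 98000000, at 1.607 (1.430 to 1.805), rank 2 of 2231 autosomal bins. It had 656 contacts with class 1 partners where 515 were expected, and 529 with class 2 partners where 668 were expected. The bin before it, from 96000001, had 1.368 (1.222 to 1.530), and the bin from 101000001 had 1.487 (1.317 to 1.679, rank 6). At the other extreme the bin from 13000001 had 0.813 (0.732 to 0.903) and the bin from 71000001 had 0.825 (0.735 to 0.926). The bin from 71000001 is a class 2 bin that directly follows a class 1 run of 3 bins.

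The highest bin of chromosome 17 was 28000001 to 29000000, at 1.408 (1.260 to 1.573, rank 18), with 45000001 to 46000000 close behind at 1.404 (1.247 to 1.582). Their intervals overlap almost fully. The lowest were the adjacent bins from 21000001 and 22000001, both at 0.790, and the second of these was at rank 2226 of 2231. High and low extremes of chromosome 17 thus lay within 10 Mb of each other, with a pair of bins removed by coverage between them. The spread of bin preference was 0.158 (SD over bins) on chromosome 11 and 0.133 on chromosome 17, which includes counting error.

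The layout was compared between separate sets of partners. Preference computed with odd-numbered autosomes as partners and with even-numbered autosomes as partners correlated over bins at 0.729 on chromosome 11, the highest of the 19 autosomes. On chromosome 17 this was 0.635, against 0.623 ± 0.0638 (SD) on the others. The bins share their own coverage in both measures. Chromosome 11 as a whole had 1.027 with odd and 1.023 with even partners, and chromosome 17 had 1.009 and 1.003.

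Contacts on the same chromosome were not used by the held-out classes and were read as a separate measure. Bins of like class on chromosome 11 met 1.136 times as often as bins of unlike class after scaling for distance (1.075 to 1.201, on 2720 like and 2409 unlike contacts). Only chromosome 9 was higher, at 1.146. The 17 other autosomes pooled to 1.059 (1.046 to 1.073), and chromosome 11 was 1.072 times that (1.014 to 1.135). On chromosome 17 the ratio was 1.085 (0.996 to 1.182), an interval that includes both 1 and the value of chromosome 11. Of the 19 autosomes, 9 had an interval above 1 (47.4%). With bins of middle preference dropped, chromosome 17 had 1.148 (1.030 to 1.278), an interval above 1. Its value was below 1 without the bin filter. Without the bin filter the ratio of chromosome 11 was 0.998 (0.945 to 1.054). With bins below 80% of the median coverage left out it was 1.07 (1.01 to 1.13), a value below the interval given above. The size of the chromosome 11 ratio thus depended on the bins used.

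Class 1 bins of chromosome 11 met each other at 1.139 times the expected contacts (1.079 to 1.201), and its class 2 bins at 1.000 (0.948 to 1.054), intervals that do not overlap. Over distances of 1 to 9 Mb the like over unlike ratio was 1.239 (1.082 to 1.420), over 10 to 49 Mb it was 1.132 (1.047 to 1.225), and at 50 Mb or more 1.094 (0.993 to 1.204). These intervals overlap, so no decline is shown. On chromosome 17 the only distance class with an interval above 1 was 10 to 49 Mb, at 1.139 (1.016 to 1.277), and from 1 to 9 Mb the ratio was 0.927 (0.770 to 1.115).

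Chromosomes 11 and 17 did not meet more often than expected as wholes. They shared 6277 contacts, 0.992 times the expected number (0.967 to 1.017). Within these contacts, however, bins were sorted by class. Like-class bins, with classes from contacts that exclude those between 11 and 17, met at 1.060 times the expected number (3399 contacts) and unlike-class bins at 0.922 (2878 contacts). The ratio of 1.150 (1.094 to 1.209) was the highest in value of the 171 pairs of autosomes. Chromosomes 16 and 19 had 1.140 (1.070 to 1.215) and 10 and 19 had 1.139 (1.079 to 1.202), so the rank is not resolved. Class 1 bins met at 1.106 (1.048 to 1.166) and class 2 bins at 1.031 (0.987 to 1.077).

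Pairs among the 17 other autosomes pooled to a like over unlike ratio of 1.060 (1.056 to 1.063), and the value of chromosomes 11 and 17 was 1.085 times that (1.033 to 1.141). An interval above 1 was common, in 140 of 171 pairs (81.9%) and in 112 of 136 pairs with neither chromosome (82.4%). It was found in 17 of 18 pairs with chromosome 11 (94.4%) and in 12 of 18 with chromosome 17 (66.7%). With the 17 other autosomes chromosome 11 had 1.087 (1.076 to 1.097) and chromosome 17 had 1.068 (1.055 to 1.081). The pair with chromosome 9 was the next highest of chromosome 11, at 1.125 (1.080 to 1.172). The pair with chromosome 7 was the next highest of chromosome 17, at 1.102 (1.050 to 1.157).

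The rank of chromosomes 11 and 17 depended on the bins and the signal used, though the interval stayed above 1 with either filter. The pair was at rank 2 with autosomes alone and in the balanced signal, and at rank 4 without chromosome ends. With the stricter coverage filter the ratio was 1.084 (1.027 to 1.145), rank 32, and without any filter it was 1.007 (0.960 to 1.057), where the interval reaches 1. It was 1.139 (1.045 to 1.243) among bins above the median of contacts of their chromosome and 1.172 (1.038 to 1.324) among the bins at or below it, a division made after the values were seen.

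**Figure D3:**
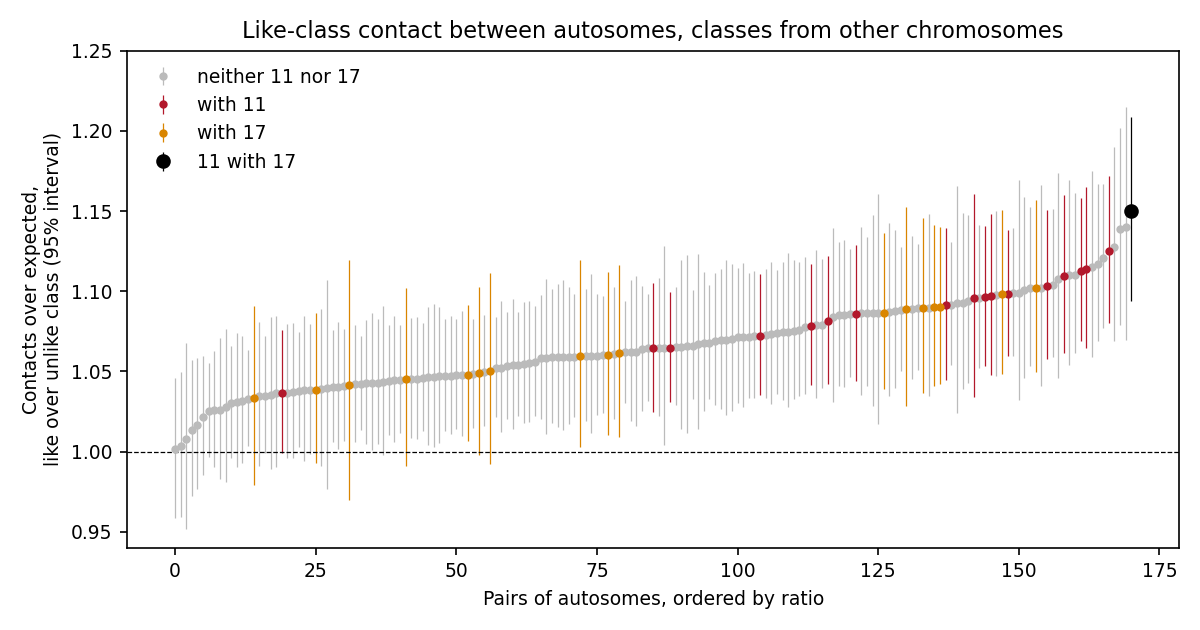
Contacts over expected of like-class bins divided by that of unlike-class bins for each of 171 pairs of autosomes, ordered by value, with 95% intervals (counting error). The pair of chromosomes 11 and 17 (black) is at the top with 1.150, pairs with 11 (red) mostly lie in the upper part, and pairs with 17 (orange) are spread over the range.

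By segment, the 6 segments of chromosome 11 that preferred class 1 met the 3 of chromosome 17 that did so at 1.089 times the expected number (1.011 to 1.171, 731 contacts). Segments of chromosome 11 with no preference met those of chromosome 17 with none at 0.934 (0.884 to 0.987). The order was not strict. These groups rest on preferences computed without contacts between chromosomes 11 and 17, by which 1 segment of chromosome 17 preferred class 2, 50 to 60 Mb at 0.932 (0.901 to 0.964), and its last segment had 0.948 (0.896 to 1.003). The 6 segments of chromosome 11 met the segment from 50 to 60 Mb at 1.055 (0.956 to 1.162). Within the group of high segments, 90 to 100 Mb of chromosome 11 and 30 to 40 Mb of chromosome 17 had 15 contacts where 27.0 were expected.

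Partner chromosomes were near even for both. The highest partners of chromosome 11 were 12 at 1.025 times the expected contacts (1.003 to 1.046), 16 at 1.010 and X at 1.009, and the lowest were 9 at 0.982 (0.962 to 1.002), 5 at 0.987 and 7 at 0.990. For chromosome 17 the highest were 16 at 1.040 (1.012 to 1.069), 15 at 1.024 and 14 at 1.023, and the lowest 4 at 0.978 (0.955 to 1.002), 2 at 0.980 and 10 at 0.987. In 2-sided exact Poisson tests against counting noise with Benjamini-Hochberg adjustment over all 190 pairs, 0 passed (0%). Chromosomes 16 and 17 had an adjusted p of 0.228 in that exact test. With an unadjusted p under 0.05 there were 2 higher (5.41%) and 0 lower pairs of 37 with chromosome 11 or 17, against 8 higher (4.21%) and 6 lower (3.16%) of 190.

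Chromosome 9 was the lowest partner of chromosome 11 in total, at 0.982 with an interval that includes 1. Its like over unlike ratio with chromosome 11 was high, at 1.125. Whether the total and this ratio are related over all pairs of autosomes was not tested.

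Single trans partners of 10 Mb segments were not set apart from counting noise. Of 5378 pairs with a segment of chromosome 11 or 17, 0 passed the adjusted threshold of 0.05 in the exact Poisson test, as did 0 of all 32264 (0%). With an unadjusted p under 0.05, 161 were higher (2.99%) and 143 lower (2.66%), against 925 (2.87%) and 864 (2.68%) of all pairs. Observed over expected had an SD of 0.161 over the 5378 pairs, where Poisson counts alone give 0.150. The median pair had 55.6 expected contacts.

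For each of the 22 segments the partner of highest value ran from 1.33 to 1.82 and that of lowest value from 0.428 to 0.701. These extremes are picked from 249 or 251 partners each and lean to thin segments: the highest partners had a median of 34.0 expected contacts. X gave 6 of the 22 highest partners although it is in 5.73% of the pairs. X gave 4 of the lowest partners, and chromosome 7, in 6.14% of the pairs, gave 5.

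Among extremes with more contacts, 110 to 120 Mb of chromosome 11 met 80 to 90 Mb of chromosome 3 with 98 contacts where 66.0 were expected (1.48, 1.20 to 1.81). The segment from 80 to 90 Mb of chromosome 11 met 40 to 50 Mb of chromosome 15 with 70 where 44.4 were expected (1.58, 1.23 to 1.99). At the low end, 50 to 60 Mb of chromosome 11 met 80 to 90 Mb of chromosome 8 with 35 where 61.3 were expected (0.571, 0.397 to 0.793). None of the 3 passed.

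The segment from 10 to 20 Mb of chromosome 17 held both a high and a low extreme. It met 10 to 20 Mb of chromosome 12 with 65 contacts where 41.4 were expected (1.57, 1.21 to 2.001) and 120 to 130 Mb of chromosome 3 with 30 where 56.1 were expected (0.534, 0.361 to 0.763). The segment from 50 to 60 Mb met 80 to 90 Mb of chromosome 14 with 89 where 59.5 were expected (1.50, 1.20 to 1.84). In the exact Poisson test each of these 3 had an adjusted p of 0.449. With segments of 20 Mb, 1 of 9019 trans pairs of the whole map passed (0.0111%), and it included chromosome 11. In it 80 to 100 Mb of chromosome 11 met 40 to 60 Mb of chromosome 8 with 148 contacts where 214 were expected (0.693, 0.586 to 0.814, exact Poisson test, adjusted p = 0.0228).

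Contacts within 10 Mb of the ends were compared with those of the other autosomes. In mice coordinates start at the centromere, which sits at one tip of the chromosome. The low-coordinate end of chromosome 11 met other low-coordinate ends at 1.108 times the expected number (1.022 to 1.198), at rank 10 of 19 autosomes, of which 10 had an interval above 1 (52.6%). Its high-coordinate end met other high-coordinate ends at 1.099 (1.046 to 1.154), at rank 5, and 9 of 19 had an interval above 1 (47.4%). With ends of 5 Mb the latter was 1.077 (0.975 to 1.187), an interval that reaches 1. Its low-coordinate end met high-coordinate ends at 0.874 (0.816 to 0.935), the lowest of 19 autosomes, of which 5 had an interval below 1 (26.3%). The same values for chromosome 17 were 1.085 (0.987 to 1.190), 1.048 (0.993 to 1.106) and 0.930 (0.860 to 1.005), intervals that all include 1. The high-coordinate end of chromosome 17 met low-coordinate ends at 1.036 (0.965 to 1.111), at rank 2 of 19, where chromosome 11 had 0.895 (0.832 to 0.960), at rank 16. An interval below 1 in this measure was also found on chromosomes 1, 2, 3, 4, 5, 6, 10, 14 and 15, lowest on chromosome 2 at 0.856 (0.785 to 0.933).

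Same-chromosome contacts were more frequent than expected at short distance on both chromosomes. Bins 1 Mb apart had 1.72 times the expected contacts on chromosome 11 (1.45 to 2.02, 146 contacts) and 1.71 on chromosome 17 (1.36 to 2.11, 84 contacts). The 17 other autosomes pooled to 1.45 (1.39 to 1.51). Neither exceeded them beyond counting error, at 1.19 times (0.996 to 1.40) and 1.18 times (0.936 to 1.47). An interval above 1 at this distance was found on 16 of 19 autosomes (84.2%).

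At 2 Mb chromosome 11 had the highest value of the 19 autosomes, 1.50 (1.25 to 1.79, 124 contacts), followed by chromosome 17 at 1.43 (1.10 to 1.81, 66 contacts). Without the 10 Mb at each chromosome end chromosome 17 had 1.24 (0.907 to 1.66), an interval that includes 1. The others pooled to 1.15 (1.09 to 1.21), and chromosome 11 was 1.31 times that (1.08 to 1.57) and chromosome 17 1.24 times (0.956 to 1.59). An interval above 1 at 2 Mb was found on 6 of 19 autosomes (31.6%). At 3 Mb the intervals of both chromosomes included 1. Bins on different chromosomes with coordinates 2 Mb apart had 1.02 for chromosome 11 and 1.03 for chromosome 17, summed over the other autosomes. The part of coordinate in the 2 Mb values was not tested.

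**Figure D4:**
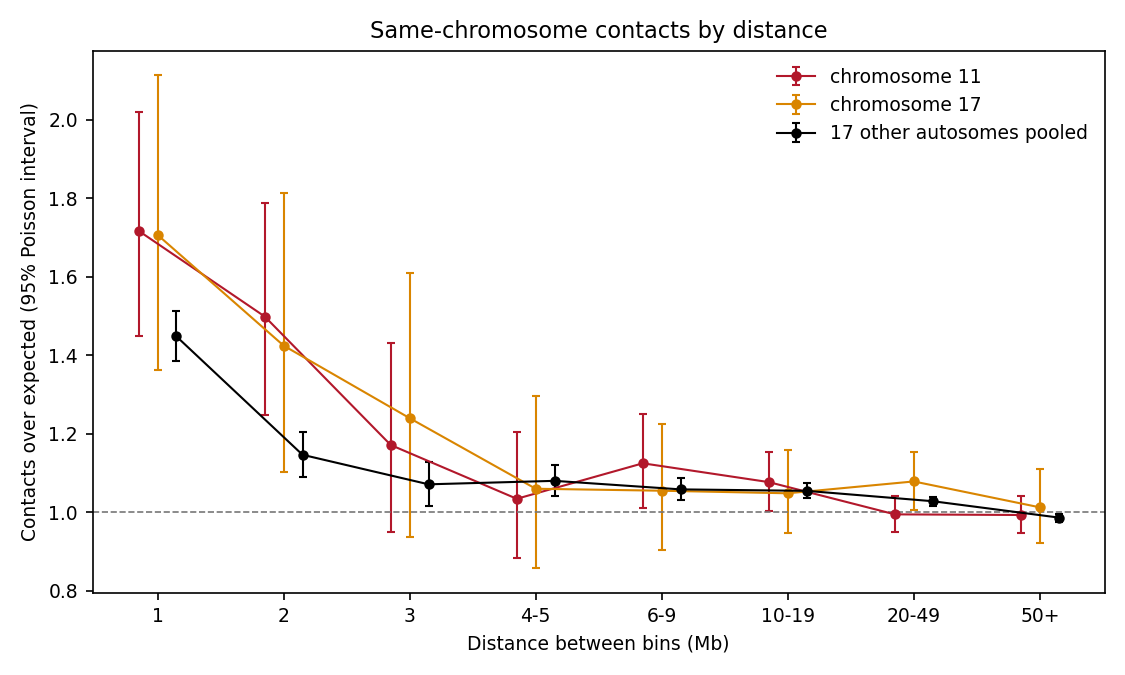
Contacts over expected of bins on the same chromosome by their distance in Mb, for chromosome 11 (red), chromosome 17 (orange) and the 17 other autosomes pooled (black), with 95% Poisson intervals. All 3 fall from 1.72, 1.71 and 1.45 at 1 Mb to near 1 at larger distances, and chromosome 11 is below 1 in value from 20 Mb.

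At longer distance the chromosomes parted in value. Chromosome 11 had 1.125 (1.010 to 1.250) over 6 to 9 Mb, 1.077 (1.003 to 1.155) over 10 to 19 Mb, 0.995 (0.949 to 1.043) over 20 to 49 Mb and 0.993 (0.947 to 1.042) beyond. Chromosome 17 had 1.055 (0.903 to 1.226), 1.049 (0.947 to 1.159), 1.079 (1.007 to 1.155) and 1.013 (0.923 to 1.109) in the same classes. The slope of log10 contact over expected on log10 distance from 2 to 50 Mb was -0.0783 on chromosome 11, the steepest of the 19 autosomes, with a standard error of 0.0223. On chromosome 17 it was -0.0306 (standard error 0.0338), and on the others -0.0260 ± 0.0313 (SD). Chromosomes 13 (-0.0684) and 5 (-0.0678) lay within the standard error of chromosome 11, so its rank is not resolved. Over 1 to 20 Mb chromosome 17 had a steeper slope than chromosome 11.

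Over all distances chromosome 17 had 1.083 times the expected same-chromosome contacts (1.037 to 1.129, 2149 contacts), second to chromosome 19, and chromosome 11 had 1.040 (1.012 to 1.069, 5129 contacts), at rank 4. An interval above 1 was found on 11 of 19 autosomes (57.9%). Chromosome 17 exceeded the pooled others, 1.027, by a factor of 1.054 (1.010 to 1.100), and chromosome 11 by 1.013 (0.984 to 1.042), which includes 1. These sums were not matched for distance. Pairs 50 Mb or more apart, at 0.987 on the others, made up 37203 of their 89316 expected contacts, against 457 of 1985 on chromosome 17. Within each distance class the ratio of chromosome 17 to the others had an interval that includes 1. The part of chromosome length in the factor of 1.054 was not tested. Chromosome 17 over chromosome 11 was 1.041 (0.989 to 1.095). With the filter at 80% of the median chromosome 17 had 1.037 (0.986 to 1.091), an interval that reaches 1. Without the segment from 50 to 60 Mb chromosome 11 had 1.026, with a lower bound of 0.996.

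Pairs of 10 Mb segments on the same chromosome were tested over all 1927 such pairs of the map. By the exact Poisson test with Benjamini-Hochberg adjustment 7 were higher (0.363%) and 1 lower (0.0519%). On chromosomes 11 and 17 this exact test called 1 of 133 pairs (0.752%), the adjacent segments 40 to 50 and 50 to 60 Mb of chromosome 11, with 105 contacts where 69.6 were expected (1.51, 1.23 to 1.83, adjusted p = 0.0259). With the stricter filter no pair of the map passed, and this pair had 1.46 (1.18 to 1.78). With segments shifted by 5 Mb the contacts fell into 1 segment, 45 to 55 Mb, with 74 where 36.4 were expected (2.03, 1.59 to 2.55, exact Poisson test, adjusted p = 8.68e-05).

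With that shift 10 of 1861 same-chromosome pairs of the map passed (0.537%). On these chromosomes 3 more segments passed in contacts within themselves: 115 to 125 Mb of chromosome 11 at 2.22 (1.48 to 3.21), 25 to 35 Mb of chromosome 17 at 1.94 (1.38 to 2.65) and 65 to 75 Mb of chromosome 17 at 1.73 (1.36 to 2.18). The segment from 25 to 35 Mb holds the longest class 1 run of chromosome 17. Whether a segment passed thus depended on where its borders lay.

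Inside the window from 45 to 55 Mb of chromosome 11, contacts concentrated on the adjacent bins starting at 49 to 53 Mb. Of 45 pairs of bins, 15 had no contact and 15 had 1, while 1 pair had 12. The bins starting at 49 and 51 Mb met the rest of the window at 4.55 (3.09 to 6.47) and 3.97 (2.59 to 5.82) times the expected number. Those starting at 50, 52 and 53 Mb had 2.54 (1.57 to 3.88), 2.33 (1.40 to 3.64) and 2.03 (1.08 to 3.47). All other bins of the window had intervals that include 1. Of these, the bins starting at 45 and 46 Mb had 0.630 (0.205 to 1.47) and 1.11 (0.478 to 2.18). The bins starting at 49 and 51 Mb had 1639 and 1567 contacts in all, against a mean of 1683 per kept bin of the chromosome.

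**Figure D5:**
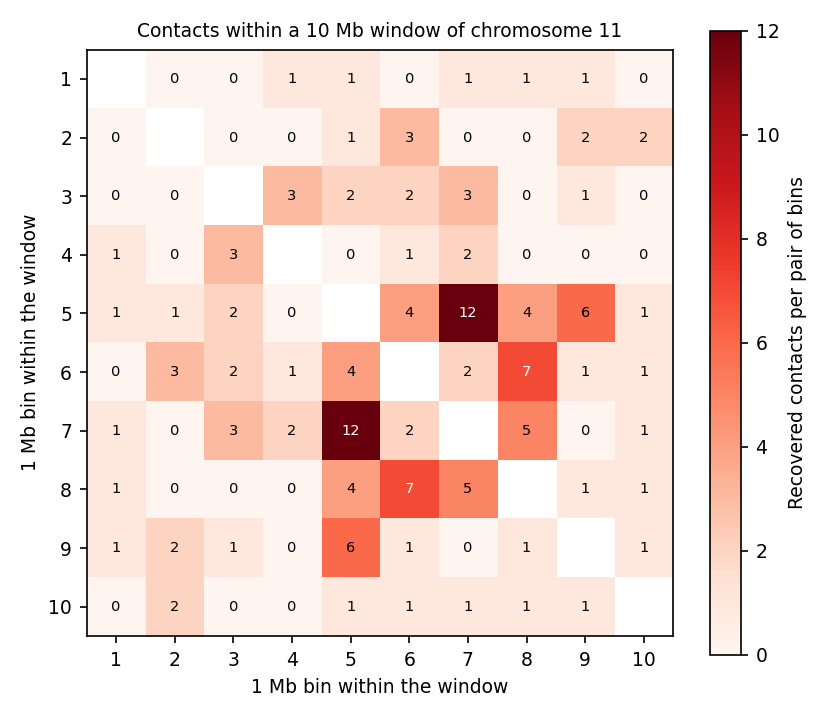
Recovered contacts for each pair of the 10 bins of 1 Mb in a 10 Mb window of chromosome 11, from 45 to 55 Mb, with the number printed in each cell and the colour scale in contacts per pair. Bins 5 and 7 share 12 contacts, the most in the window, and all 6 pairs with 4 or more contacts lie among bins 5 to 9.

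A test of every pair of bins on the same chromosome was added after these values were seen. Of 144017 pairs over the map, 19 were higher (0.0132%) and 0 lower by the exact Poisson test after Benjamini-Hochberg adjustment, and 15 of the 19 were within 2 Mb. Chromosome 11 had 1 of 6555 pairs (0.0153%), 49000001 to 50000000 with 51000001 to 52000000, with 12 contacts where 0.664 were expected (18.1, 9.34 to 31.6, exact Poisson test, adjusted p = 8.01e-07). It was at rank 3 of the map by p. The bin that lies between them, from 50000001, met these with 4 and 2 contacts.

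Chromosome 17 had 1 of 3160 pairs (0.0316%, or 0.0206% for both chromosomes together), the neighbours 30000001 to 31000000 and 31000001 to 32000000, with 7 contacts where 0.525 were expected (13.3, 5.36 to 27.5, exact Poisson test, adjusted p = 0.0265). Both are class 1 bins at the end of the run from 25 Mb. The shares on both chromosomes are counts of 1, too few to set against the background.

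The 2 Mb value of chromosome 11 depended on this window. Without pairs inside 45 to 55 Mb, chromosome 11 had 1.67 (1.40 to 1.99) at 1 Mb, 1.33 (1.08 to 1.61) at 2 Mb and 1.033 (1.004 to 1.061) over all distances. At 2 Mb it was then behind chromosome 17, at rank 2, and its ratio to the other autosomes was 1.16 (0.937 to 1.42), which includes 1. At 2 Mb, 45 of its 109 pairs had no contact and 14 had 3 or more, and without the 3 pairs of most contacts the value was 1.26. The same removal on chromosome 17 left 1.41 at 1 Mb and 1.23 at 2 Mb.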

How the data were processed

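The study mapped contacts by Hi-C in 6 libraries of 1 group. The unit is a contact signal for pairs of 1 Mb bins, which the authors pooled, balanced and deposited as 1 table beside a key of bin positions. HiC-Pro 2.7.8, bedtools and mm9 are named without roles, per the submitters' processing notes. Which aligner, filters and libraries went into it is not given in the sources used here. Balancing evens out bin sums and can raise noise in poorly covered bins.

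Each balanced value was divided by a factor for each of its bins, which gave whole contacts for 100% of 1365118 listed pairs (within 0.01). Bins were left out if their listed trans partners were under 50% of the median, 1087, and unlisted pairs counted as 0. Expected contacts were products of bin factors fitted to trans totals. The eigenvector used the balanced signal of autosomes and X. Segments of 10 Mb needed 3 kept bins to be ranked or tested. Intervals at 95% are exact Poisson or conditional binomial, and those of differences between ratios are normal on the log scale. Tests were 2-sided exact Poisson tests against counting noise, with Benjamini-Hochberg adjustment over all pairs of the map and a threshold of 0.05.

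Partner chromosomes are named by the 3 highest and 3 lowest, and runs by length. Segments are given in full, partner segments by range and by the extremes of most contacts, and single bins by their extremes. The last 2 choices were made after the values were seen. The members and lists were chosen with earlier results of these data known. Bins of other filters, listed pairs alone, other segments, other eigenvector inputs and left-out segments were tried as alternatives. The steps were tested on simulated data. Genes were not placed in bins, and no sequence was used, since no mm9 genome was used here. Coordinates are 1-based on mm9. The tools were pandas 2.3.3, scipy 1.17.1, numpy 2.4.6, matplotlib 3.10.9 and Python 3.11.15.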

Additional observations from a re-analysis of the deposited data

Results flagged for a closer look

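Contacts with both ends in 1 bin were outside all comparisons. Kept bins of chromosome 11 held 143 of them, 3.18 times the expected number (2.68 to 3.75, Poisson interval at 95%), taken as the squared bin factor times 0.5. Kept bins of chromosome 17 held 119, at 4.41 times (3.65 to 5.28), and those of the 17 other autosomes had 3.22 times (3.09 to 3.35). The interval of chromosome 17 lies above that of the others and overlaps that of chromosome 11.

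Bins left out for low coverage also held contacts, 1538 in 4 bins of chromosome 11 and 5925 in 13 bins of chromosome 17. Their medians were 426 and 486 contacts per bin, against means of 1683 and 1539 in the kept bins.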

How the results depend on the processing

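No replicate could be left out and no paired analysis was possible because the files hold 1 pooled table. Without the bin filter the class 1 share was 0% on both chromosomes, neighbouring scores correlated at 0.288 on chromosome 11 and 0.0406 on chromosome 17, preferences were 1.12 and 1.10, like-class contact on the same chromosome was 0.998 and 0.946, like-class contact between them was 1.007, and 3 same-chromosome segment pairs passed. With listed pairs alone, which drop every zero, shares were 87.8% and 86.2%, correlations 0.385 and 0.133 and preferences 1.30 and 1.29. All-distance contact of chromosome 11 was then 0.969, its 1 Mb value 1.23, and its high-coordinate end 0.971 (0.927 on chromosome 17). Like-class contact could not be computed with listed pairs, since all bins fell on the same side of the preference. With the filter at 80% like-class contact was 1.07 on chromosome 11 and 1.084 between the chromosomes, and 0 same-chromosome segment pairs passed. With bins of middle preference dropped these were 1.25 and 1.237. Preference of chromosome 11 was 1.008 without chromosome ends, 1.044 in the balanced signal and 1.036 without its segment at 10 Mb. Slopes over 1 to 20 Mb were -0.124 and -0.131, and low-coordinate ends of 5 Mb gave 1.37 on chromosome 11. Segments of 20 Mb gave 1 trans and 4 same-chromosome calls, and a shift by 5 Mb gave 4. Over the whole map the same-chromosome calls were 8 of 1927 pairs, 17 of 2038 without the bin filter, 18 of 572 at 20 Mb and 10 of 1861 with the shift. Trans calls over the whole map were 1 of 9019 pairs at 20 Mb and 1 of 31035 with the shift. Over the alternatives fixed in advance 129 values stayed within their error or call, 25 moved beyond it, 4 counts rose, 1 fell, and 3 values whose interval had lain above 1 came below 1, the 0.998, 0.969 and 0.971 of chromosome 11 given above. On chromosome 17 the 0.946 and 0.927 above and the preference with the 80% filter (0.997) also lay below 1, where the main interval included it. Of the alternatives chosen after seeing the data, 95 stayed and 1 moved. Depth limits single pairs of bins, most of which had no contact or 1.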
